A study of Mus musculus with 4 samples.

Results

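The genes described here encode the intraflagellar transport machinery and the BBSome, chosen by symbol from the deposited table: names beginning with Ift or Bbs and a digit, plus Ttc8, Bbip1, Arl6, Wdr19, Wdr35, Traf3ip1, Tulp3, Cluap1, Spef2 and the dynein-2 genes Dync2h1, Dync2i1, Dync2i2 and Dync2li1. The rule found 41 of 44509 named genes, and 40 of the 41 reached 1 FPKM in at least 2 libraries and were tested. The remaining one, Ift88os, an antisense RNA of the Ift88 locus, was at 0.21 FPKM or below in every library. It shares 67 exon bases with Ift88, 3.32% of its own, where reads cannot be told apart without a strand setting. FPKM scales fragments to gene length and library size, so it can be compared between genes as a level per length.

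The data are 4 RNA-seq libraries of mouse testis. Per their source labels, 2 came from busulfan-induced oligozoospermic mice treated with Cus-1. The other 2 came from the busulfan-induced oligozoospermia model, with no further treatment named. Cus-1 is a resin glycoside of a cuscutae extract, which the source labels do not state. Busulfan, which both groups received, is a DNA-alkylating agent that depletes proliferating germ cells and leaves the tubules short of sperm. Strain, age, dose, time and the number of animals per library are not stated in the labels, testes without busulfan were not analysed here, and a p-value below measures only the spread between these libraries, which may be technical. The sample titles start with CUS2 in the group whose source label says Cus-1 and with BPA in the busulfan group, so group membership rests on the source label alone. The summed FPKM lay between 726041 and 742689, and the depth in fragments is not stated.

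Intraflagellar transport moves cargo along the microtubules of cilia and flagella. The IFT-B complex travels outward with kinesin-2, the IFT-A complex and the dynein-2 motor bring material back, and the BBSome, a coat of 8 subunits recruited by the GTPase Arl6, carries membrane proteins out of the cilium. Spermatids use the machinery for a limited time, while the tail is built, and mice that carry a weakened Ift88, or lack Ift140, Ift172 or Ift20 in germ cells, make few sperm, with malformed tails. Somatic cells of the testis, Sertoli and Leydig cells among them, can carry a primary cilium that uses the same proteins.

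Most of these genes had higher levels in the testes of mice treated with Cus-1. Of the 40 tested genes, 34 (85%) lay above both busulfan libraries in each Cus-1 library, against 36.6% of all 19837 tested genes. Only Tulp3 and Bbs12 were lower in both Cus-1 libraries (5%, against 31.7% of all genes), and Ift20, Ift70b, Bbs2 and Bbs4 overlapped between the groups. The median log2 fold change, busulfan with Cus-1 minus busulfan on log2(FPKM + 1), was 0.50, against 0.04 for all tested genes, and it was positive for 35 of the 40 (87.5%), against 52.4%. No gene, among the 40 or elsewhere, passed the adjusted threshold of 0.05 in the limma fit over all tested genes (0 of 19837, 0%). At an unadjusted limma p under 0.05, 18 of the 40 (45.0%) were higher, against 18.0% of all genes, and 0 were lower, against 9.96%. The count of 18 rested on both extreme libraries: it was 3 without busulfan 1, where 5.84% of all genes were higher, and 4 without Cus-1 1, where the share was 7.25%. The median was 0.35 and 0.37 in those fits. An exact permutation test of 2 libraries against 2 cannot go below 0.333, so no test of a single gene was made that way.

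**Figure D1:**
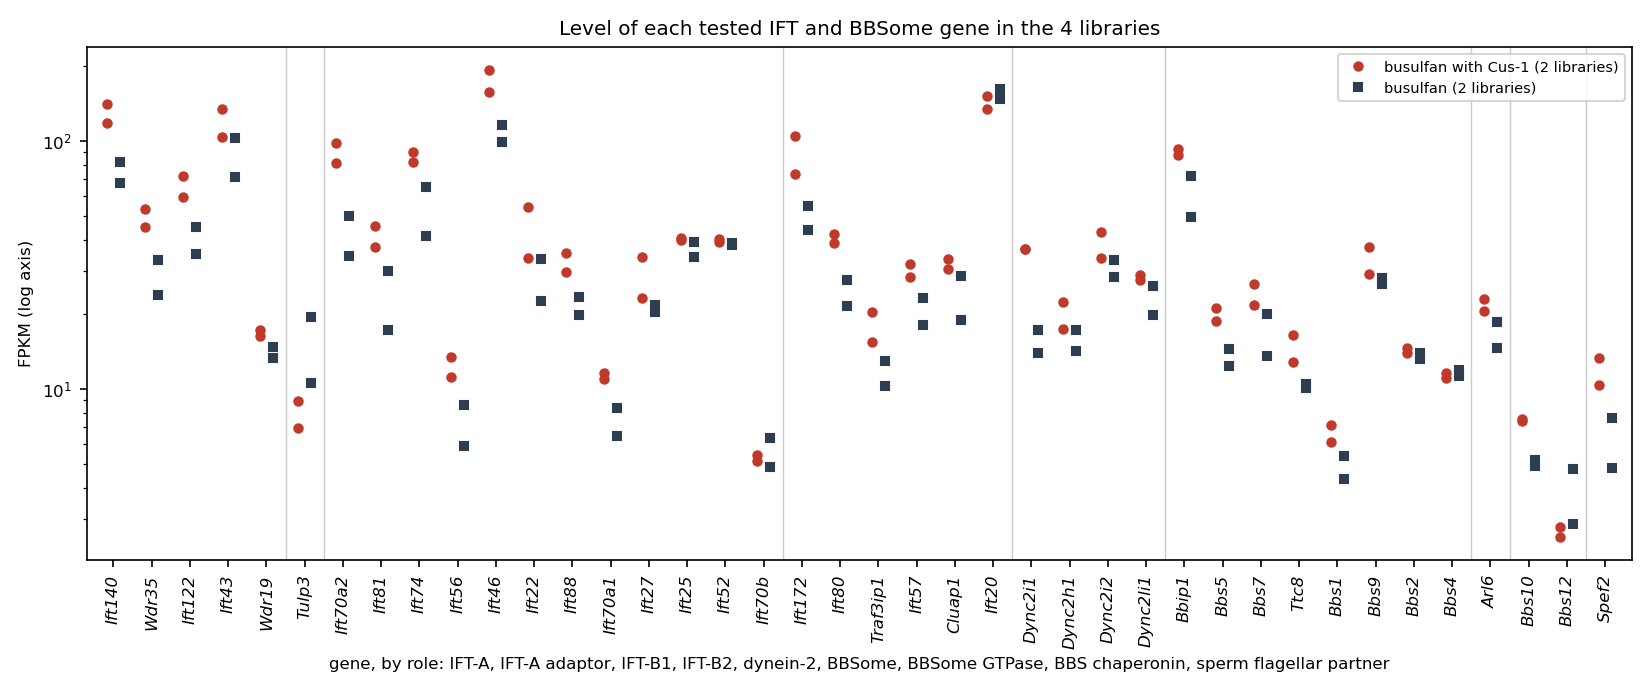
Level of the 40 tested genes, in FPKM on a log axis, with the Cus-1 libraries as circles to the left of the busulfan libraries as squares, genes ordered by role and vertical lines between roles. In 34 of 40 genes both circles lie above both squares, and Tulp3 and Bbs12 show the opposite.

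The 4 libraries were not evenly spaced. Busulfan 1 was the lowest library for 31 of the 40 genes and Cus-1 1 the highest for 33. The full order of Cus-1 1 above Cus-1 2, busulfan 2 and then busulfan 1 held for 29 genes (72.5%), against 23.5% of all tested genes. The median level was 33.7 and 28.7 FPKM in Cus-1 1 and 2, against 19.3 and 23.3 FPKM in busulfan 1 and 2. Within each group the libraries therefore differed too, and Cus-1 2 and busulfan 2 were the closest pair across groups.

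Markers of spermatocytes, spermatids and Sertoli cells differed between the groups as well. The summed level of 11 round spermatid markers was 1199 and 843 FPKM in Cus-1 1 and 2, against 427 and 622 FPKM in busulfan 1 and 2, and all 11 lay above busulfan in each Cus-1 library. The same held for 10 of 10 spermatocyte markers and 11 of 11 elongating spermatid markers (100% in each list, against 36.6% of all genes). All 12 of 12 Sertoli markers were lower in both (against 31.7%). Elongating spermatid markers differed widely between the Cus-1 libraries, with sums of 12337 and 4449 FPKM, against 3253 and 3399 FPKM with busulfan. Of these 11, 4 were higher at an unadjusted limma p under 0.05 (36.4%, against 18.0%). Median log2 fold changes were 0.93, 1.14 and 1.22 for spermatocyte, round spermatid and elongating spermatid markers and -0.72 for Sertoli markers. The 0.50 of the transport genes lay below those germ cell lists and above the Sertoli list. Spermatogonia lists were mixed, with medians of 0.55 for differentiating and -0.11 for undifferentiated ones. Of these markers, 4 of 6 and 2 of 7 lay above busulfan in each Cus-1 library (66.7% and 28.6%, against 36.6%). Below it in both were 1 of 6 and 3 of 7 (16.7% and 42.9%, against 31.7%). The summed FPKM of the 40 genes, divided by that of the round spermatid markers, was 1.55 and 1.90 in Cus-1 1 and 2, against 2.55 and 2.15 in busulfan 1 and 2. Divided by that of the Sertoli markers it was 0.681 and 0.484, against 0.191 and 0.324. The median levels of macrophage and endothelial markers ran in the same order of libraries as that of the Sertoli markers. They were lowest in Cus-1 1 and highest in busulfan 1. Leydig and peritubular myoid markers did not follow this order. The median level of Leydig markers was highest in busulfan 2, and that of peritubular myoid markers was higher in Cus-1 2 than in busulfan 2. All markers of the Leydig (8), peritubular myoid (6), endothelial (6) and macrophage (8) lists had negative log2 fold changes (against 47.6% of all genes). Of these, 5, 1, 5 and 6 lay below busulfan in both Cus-1 libraries (62.5%, 16.7%, 83.3% and 75.0%, against 31.7%). The share for peritubular myoid markers was thus under that of all genes. In bulk tissue, fewer cells of a type and less RNA per cell cannot be told apart, and the part of the cell mixture in the gene levels was not tested.

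**Figure D2:**
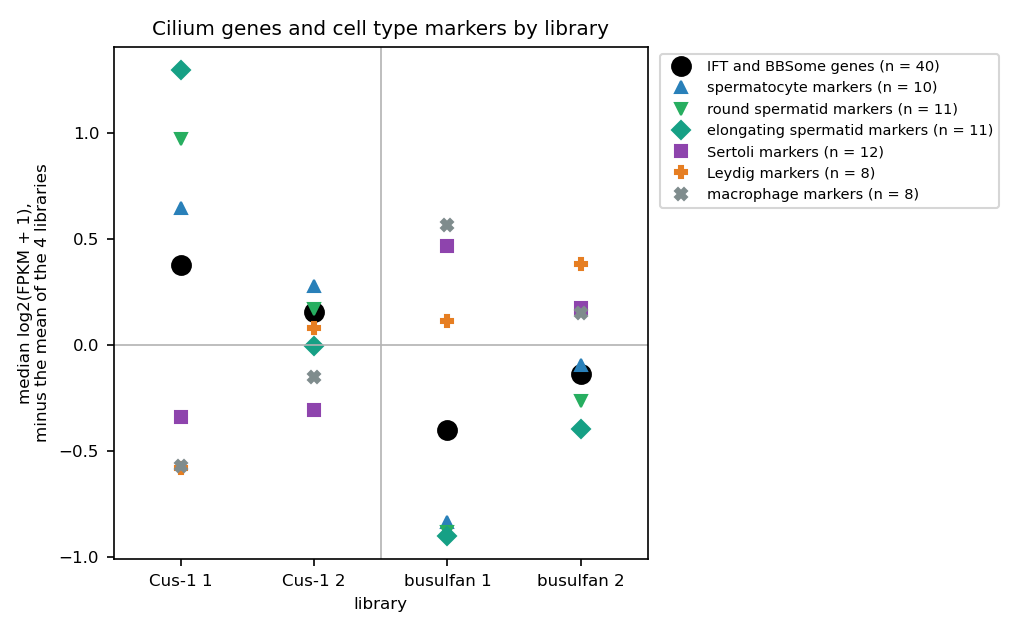
Median log2(FPKM + 1) of the 40 transport genes and of 6 marker lists in each library, each list minus its mean over the 4 libraries. The transport genes (black) run in the same direction as the spermatocyte and spermatid lists and opposite to the Sertoli markers. Their range, from -0.40 in busulfan 1 to 0.38 in Cus-1 1, is smaller than that of the spermatocyte and spermatid lists. Markers of spermatogonia are not drawn.

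Tissues around the testis contain multiciliated cells that also use these genes, so their markers were read as well. Mcidas and Gmnc, which switch on the multiciliated programme, were at 0.09 FPKM or below in both Cus-1 libraries and at 0.18 or below in both busulfan libraries, with Mcidas listed at 0 in 1 library of each group. Among 5 multiciliated markers, 2 were tested, and Deup1, a centriole amplification gene, made up nearly all of the summed level of 46.7 and 26.6 FPKM with Cus-1, against 12.8 and 19.8 FPKM with busulfan. The 7 markers of efferent ducts and rete testis summed to 6.48 and 6.42 FPKM, against 6.77 and 3.27 FPKM, and only the transcription factor gene Emx2 was tested, at 3.89 and 3.46 against 2.08 and 1.49 FPKM. Of 7 epididymal markers 3 were in the table, with sums of 5.71 and 3.28 against 3.63 and 7.47 FPKM that overlapped between the groups.

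Promoters of 35 of the 41 genes were present in the RefSeq table of build GRCm38.p6, which spans 250 bases before to 50 after each gene's start. The X-box, the DNA motif bound by RFX transcription factors and known from many cilium genes, was searched on both strands as GTNNCC, any 3 bases and GNAAC, which fixes 8 of its 14 bases. Its letters stood in 7 of the 35 windows (20.0%), against 3.40% of the windows of 12751 tested genes and 2.49% of all 27025 genes with a window. All 8 matches are shown because they let the motif be compared between genes that share it, on the strand of the gene, with the X-box letters in capitals and 8 flanking bases on each side. The first Ift22 site, Ift57 and Bbs1 match only as the reverse complement, so their capitals read GTTNC, any 3 bases and GGNNAC.
Ift70a2, chr2:75978182-75978211, minus strand: gttggcttGTTGCCATGGGAACaagcacac
Ift56, chr6:38381483-38381512, plus strand: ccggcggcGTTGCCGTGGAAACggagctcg
Ift22, chr5:136908079-136908108, plus strand: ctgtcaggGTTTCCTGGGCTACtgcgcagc
Ift22, chr5:136908109-136908138, plus strand: tgttcccgGTCGCCGTGGAAACtgaccagc
Ift57, chr16:49699199-49699228, plus strand: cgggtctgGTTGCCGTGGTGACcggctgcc
Bbs7, chr3:36613489-36613518, minus strand: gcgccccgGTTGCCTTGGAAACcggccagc
Bbs1, chr19:4906605-4906634, minus strand: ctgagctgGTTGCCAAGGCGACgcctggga
Bbs4, chr9:59353464-59353493, minus strand: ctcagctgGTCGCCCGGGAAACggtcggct

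The capitals of Ift70a2, Ift56, Ift57, Bbs7 and both Ift22 sites lie upstream of the RefSeq start, between -121 and -11, whereas those of Bbs1 and Bbs4 lie just after it. In GENCODE M21, which uses that build, the printed stretches of Ift56, Bbs1 and Bbs4 overlap an exon of their own gene, and the others overlap none. The 7 genes with the letters had a median log2 fold change of 0.53, with a range from -0.03 for Bbs4 to 1.09 for Ift70a2. The 28 tested genes whose windows lacked them had one of 0.46, from -0.79 to 1.18. A match describes letters in this window and does not show a bound site.

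IFT-A, the complex of retrograde transport and of entry of membrane proteins, was higher throughout, with all 5 of its genes above in both Cus-1 libraries (against 36.6% of all genes) and a median of 0.71. Ift140 (mm10 chromosome 17, 25016085 to 25099495) measured 140.5 and 118 FPKM with Cus-1, against 67.4 and 82.4 FPKM with busulfan. Its groups stood well apart, with a log2 fold change of 0.78 (SE 0.18, limma unadjusted p = 0.00763, adjusted p = 0.152). Wdr35, which encodes IFT121, was at 53.2 and 45.0 FPKM against 24.0 and 33.1 FPKM (0.77, SE 0.21). Ift122 was at 72.5 and 59.6 FPKM against 35.0 and 45.0 FPKM (0.71, SE 0.20). For the small subunit gene Ift43 the groups nearly touched, at 134 and 103.4 against 71.8 and 102.5 FPKM. Wdr19, which encodes the core subunit IFT144, differed least, at 17.3 and 16.3 against 14.8 and 13.3 FPKM (0.24, 95% interval -0.18 to 0.67). The level of Ift140 was 8.13 and 7.25 times that of Wdr19 in the Cus-1 libraries, against 4.56 and 6.19 times in the busulfan libraries.

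Tulp3, the adaptor that links IFT-A to membrane receptors bound for the cilium, ran the other way. It was at 6.93 and 8.92 FPKM with Cus-1, against 19.5 and 10.5 FPKM with busulfan. The busulfan libraries differed from each other by more than busulfan 2 did from either Cus-1 library. The log2 fold change was -0.79 (SE 0.33, limma unadjusted p = 0.0609, adjusted p = 0.190), and -0.38 without busulfan 1.

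**Figure D3:**
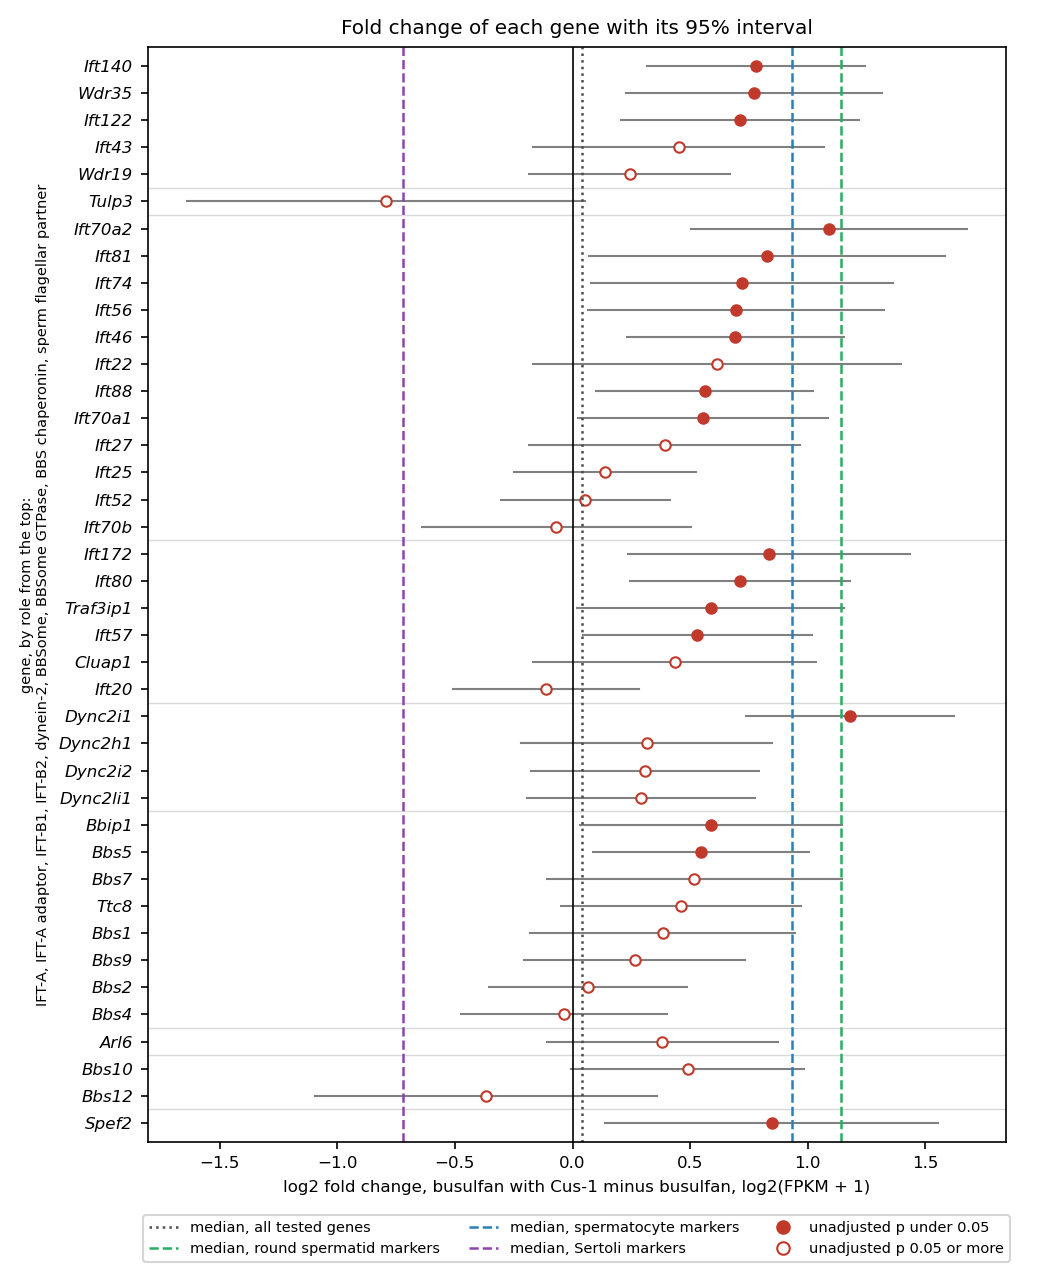
Log2 fold change (busulfan with Cus-1 minus busulfan, on log2(FPKM + 1)) of the 40 genes with 95% intervals from limma, grouped by role, filled where the unadjusted p was under 0.05. Dashed and dotted lines mark list medians: most genes lie between the median of all genes (0.04) and that of round spermatid markers (1.14), with Dync2i1 at the high end and Tulp3 at the low end.

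Of the 12 tested IFT-B1 genes, the core of the anterograde train, 11 were higher in both Cus-1 libraries (91.7%, against 36.6% of all genes), 7 at an unadjusted limma p under 0.05 (58.3%, against 18.0%), and the median was 0.59. Ift70a2, one of 3 IFT70 copies in the table, was at 97.9 and 81.5 FPKM with Cus-1, against 34.5 and 49.8 FPKM with busulfan (1.09, SE 0.23, limma unadjusted p = 0.00498, adjusted p = 0.152). Its neighbour Ift70a1 was at 11.6 and 10.98 against 6.45 and 8.39 FPKM, and Ift70b, 5.11 and 5.41 against 6.35 and 4.86 FPKM, overlapped between the groups. The 3 copies lie on the minus strand of chromosome 2, with Ift70a1 and Ift70a2 adjacent, and 43.7% of the 50-base windows of the longest Ift70a2 transcript occur in Ift70a1 and 34.0% in Ift70b. Fragments could be split between them, so the level of each copy is uncertain. Without the 3 copies, 32 of the remaining 37 lay above busulfan in each Cus-1 library.

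Ift46, a core subunit gene (mm10 chromosome 9, 44767908 to 44793447), was the most abundant of the IFT-B1 genes, at 193 and 157 FPKM with Cus-1, against 99.3 and 116 FPKM with busulfan (0.69, SE 0.18). Ift74 and Ift81, whose proteins pair to bind tubulin, differed by 0.72 (SE 0.25) and 0.83 (SE 0.29) on the log2 scale. Ift74 was at 90.4 and 82.2 against 41.2 and 65.2 FPKM. Ift81 was at 45.5 and 37.3 against 17.3 and 30.0 FPKM, with busulfan 1 well below busulfan 2 for both genes. Ift88, the subunit mutated in the classical polycystic kidney mouse, was at 35.2 and 29.5 FPKM against 19.8 and 23.4 FPKM (0.56, SE 0.18). Ift56 was at 13.4 and 11.1 against 5.91 and 8.63 FPKM (0.70, SE 0.24).

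The small GTPase subunits Ift22 and Ift27 had log2 fold changes of 0.62 and 0.39, with the Cus-1 libraries unequal: Ift22 was at 53.9 and 33.8 against 22.6 and 33.5 FPKM, and Ift27 at 33.9 and 23.2 against 21.7 and 20.5 FPKM. Ift25, the partner of Ift27, was at 40.5 and 39.9 against 34.2 and 38.9 FPKM. Ift52, another core subunit, was nearly level at 40.3 and 39.2 FPKM with Cus-1, against 37.9 and 38.6 FPKM with busulfan. Its log2 fold change was 0.05 (95% interval -0.30 to 0.41), and -0.05 under quantile normalization. Ift70a2 and Ift52 encode subunits of the same core, and their ratio of levels was 2.43 and 2.08 in the Cus-1 libraries, against 0.911 and 1.29 in the busulfan libraries.

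In IFT-B2, the peripheral module that contacts kinesin-2, 5 of 6 lay above busulfan in each Cus-1 library (83.3%, against 36.6% of all genes), 4 at an unadjusted limma p under 0.05 (66.7%, against 18.0%). Ift172, the largest IFT protein, was at 105 and 73.7 FPKM with Cus-1, against 43.6 and 54.7 FPKM with busulfan (0.84, SE 0.23). Ift80 was at 42.3 and 38.9 against 21.6 and 27.6 FPKM (0.71, SE 0.18). Traf3ip1, which encodes IFT54, had a log2 fold change of 0.59 (SE 0.22), Ift57 one of 0.53 (SE 0.19) and Cluap1, which encodes IFT38, one of 0.43 (SE 0.23). Exons of Cluap1 overlap 3 other annotated genes, one of them covering 22.4% of its exon bases on the same strand, so its level is uncertain. Bbip1, Arl6, Bbs4, Bbs12, Ift57 and Ift88 share 1.31% to 7.86% of their exon bases with a gene on the opposite strand, whose reads could count towards them if strand was not used.

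Ift20, the subunit that also sits at the Golgi and that mouse spermatids need for tail formation, stood apart from the rest of IFT-B2. It was at 135 and 152 FPKM with Cus-1, against 148 and 162 FPKM with busulfan, and the groups overlapped (-0.11, 95% interval -0.51 to 0.28). Its level was 0.699 and 0.966 times that of Ift46 in Cus-1 1 and 2, against 1.49 and 1.40 times in busulfan 1 and 2, where it was the most abundant of all 41 genes.

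Within dynein-2, the retrograde motor, 1 of 4 subunit genes was higher at an unadjusted limma p under 0.05 (25.0%, near the 18.0% of all genes). That gene had by far the largest fold change of the 4. Dync2i1, an intermediate chain gene formerly named Wdr60 (mm10 chromosome 12, 116206262 to 116263022), measured 36.6 and 36.5 FPKM with Cus-1, against 14.02 and 17.3 FPKM with busulfan. The means of 36.6 ± 0.106 and 15.6 ± 2.30 FPKM (SD, n = 2 each) put it 2.34 times higher, with the groups far apart. Its log2 fold change of 1.18 (SE 0.17, 95% interval 0.74 to 1.62, limma unadjusted p = 0.0010, adjusted p = 0.152) was the largest among the 40 genes, and by unadjusted p it ranked 71 of all 19837 tested genes. It stayed between 1.04 and 1.32 when any 1 library was left out.

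The other dynein-2 genes lay above busulfan as well, by less. That made 4 of 4 higher in both Cus-1 libraries (100%, against 36.6% of all genes). The heavy chain gene Dync2h1 was at 22.4 and 17.4 against 14.2 and 17.3 FPKM (0.32, SE 0.21). The second intermediate chain gene, Dync2i2, was at 42.8 and 33.8 against 28.2 and 33.1 FPKM (0.31, SE 0.19), and the light intermediate chain gene Dync2li1 at 28.8 and 27.5 against 19.9 and 26.1 FPKM (0.29, SE 0.19). In each of the 3, Cus-1 2 lay close to busulfan 2. The level of Dync2i1 was 1.64 and 2.10 times that of Dync2h1 in the Cus-1 libraries, against 0.990 and 1.0 times in the busulfan libraries. Relative to Dync2i2 it was 0.856 and 1.08, against 0.498 and 0.523, and relative to Dync2li1 1.27 and 1.33, against 0.704 and 0.661. These ratios are a description and were not tested.

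The BBSome genes had a median of 0.42, which ran from 0.28 to 0.56 when any 1 library was left out. Of the 8, 6 lay above busulfan in each Cus-1 library (75.0%, against 36.6% of all genes) and 2 were higher at an unadjusted limma p under 0.05 (25.0%, near the 18.0% of all genes). Those 2 were Bbs5, a subunit that binds phosphoinositides, and Bbip1, the smallest subunit. Bbs5 was at 21.3 and 18.8 FPKM with Cus-1, against 12.4 and 14.5 FPKM with busulfan (0.55, SE 0.18). Bbip1, the most abundant BBSome gene, was at 93.0 and 87.7 against 49.5 and 72.0 FPKM (0.59, SE 0.22). Bbs7 had a log2 fold change of 0.52 (SE 0.24), Ttc8, which encodes BBS8, one of 0.46 (SE 0.20), Bbs1 one of 0.38 (SE 0.22) and Bbs9 one of 0.26 (SE 0.18).

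Bbs2 and Bbs4 were level within the spread of the libraries. Bbs2 was at 13.9 and 14.7 FPKM with Cus-1, against 13.3 and 13.96 FPKM with busulfan (0.07, 95% interval -0.36 to 0.49). Bbs4 was at 11.1 and 11.6 against 12.0 and 11.3 FPKM (-0.03, interval -0.47 to 0.40), a sign that turned without busulfan 1. The sign also turned after centring on Sertoli markers, which shifts every gene upward by the same amount. The intervals leave room for a moderate difference either way. Bbs2 and Bbip1 encode subunits of the same coat, and the level of Bbip1 was 6.69 and 5.98 times that of Bbs2 in the Cus-1 libraries, against 3.73 and 5.16 times in the busulfan libraries.

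Arl6, the GTPase that recruits the BBSome to membranes, was at 23.1 and 20.5 FPKM with Cus-1, against 14.6 and 18.6 FPKM with busulfan (0.38, SE 0.19). The chaperonin-like genes Bbs10 and Bbs12, whose products help to assemble the coat, had opposite signs. Bbs10 was at 7.39 and 7.58 against 4.91 and 5.17 FPKM (0.49, SE 0.19, limma unadjusted p = 0.0514), with close replicates in both groups. Bbs12 was at 2.54 and 2.78 against 2.86 and 4.76 FPKM (-0.37, SE 0.28). Its value turned to 0.35 after centring on Sertoli markers, which shifts every gene upward by the same amount. Spef2, a protein of the sperm tail that binds Ift20 in mouse testis, was at 13.3 and 10.4 FPKM with Cus-1, against 4.82 and 7.63 FPKM with busulfan (0.85, SE 0.28), in the same order of libraries as the spermatid markers.

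Related genes outside the symbol rule were read from 6 lists, none with a gene past the adjusted threshold of limma. The list nearest to the machinery held subunits and regulators under other symbols, 8 of 17 of which were in the table, several of the rest being older names of genes above. By unadjusted limma p under 0.05, 4 of these 8 were higher (50%, against 18.0% of all genes) and 1 was lower (12.5%, near the 9.96% of all genes). Dynlrb2, a roadblock light chain, was at 104 and 92.3 FPKM with Cus-1, against 41.0 and 59.9 FPKM with busulfan (0.97, SE 0.22). The shared light chain genes Dynll1 and Dynll2, which many motors use, differed by 0.14 (SE 0.18) and -0.32 (SE 0.14) on the log2 scale. Chosen after its values were seen, Dynlrb1, the paralog of Dynlrb2, was the 1 lower gene, at 73.1 and 94.4 against 123 and 123 FPKM. Ttc21b, the remaining IFT-A subunit gene and also chosen afterwards, was at 49.1 and 44.8 against 23.2 and 33.3 FPKM (0.73, SE 0.22).

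The kinesin-2 motor, which drives anterograde transport, had 4 of 5 genes higher in both Cus-1 libraries (80.0%, against 36.6% of all genes). Its motor subunits Kif3a and Kif3b were at 39.8 and 40.1 against 25.2 and 29.7 FPKM, and at 52.6 and 43.8 against 33.9 and 38.3 FPKM. Chosen after their values were seen, Kif17, the homodimeric motor, was at 31.7 and 13.1 against 6.32 and 8.01 FPKM (1.40, SE 0.43), and Kif3c at 2.60 and 3.68 against 6.07 and 5.73 FPKM (-0.75, SE 0.24).

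Of the 7 genes for RFX factors and Foxj1, which control cilium genes, Rfx2 and Rfx4 were the 2 higher at an unadjusted limma p under 0.05, with 0 lower. With 28.6% higher, against 18.0% of all genes, and 3 of 7 above busulfan in each Cus-1 library (42.9%, against 36.6%), these 2 counts lay near the background. The median was 0.51, against 0.04 for all genes. The log2 fold change was positive for 6 of 7 (85.7%, against 52.4%), and 0 lay below in both Cus-1 libraries (against 31.7%). Rfx2, which mouse spermatids need to complete their development, was at 73.5 and 55.2 FPKM with Cus-1, against 28.8 and 36.0 FPKM with busulfan (0.96, SE 0.21, limma unadjusted p = 0.00625, adjusted p = 0.152). Rfx4 was at 46.2 and 23.3 against 9.21 and 10.3 FPKM (1.65, SE 0.34). The groups overlapped for Rfx1, Rfx5, Rfx7 and Foxj1.

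The partners of the MEIG1 complex and the manchette, the microtubule sleeve along which cargo moves in elongating spermatids, showed the highest median of the 6 lists, 0.95, with 6 of 6 genes higher in both Cus-1 libraries, against 36.6% of all genes. Meig1 was at 1765 and 1488 FPKM with Cus-1, against 710.4 and 1022 FPKM with busulfan. Spag16, a protein of the sperm axoneme, was at 70.8 and 61.5 against 26.6 and 38.1 FPKM (1.03, SE 0.22). The transition zone, the gate at the base of the cilium, had a median of 0.24, with 12 of 17 genes above (70.6%, against 36.6% of all genes) and 2 below (11.8%, against 31.7%) busulfan in each Cus-1 library. Among them B9d1 was at 70.8 and 67.9 against 34.6 and 50.2 FPKM. Small GTPases and cargo carriers of the cilium had a median of 0.35 over 11 tested genes, with 8 higher (72.7%) and 2 lower (18.2%) in both, against the same 36.6% and 31.7%. Arl3 was at 222 and 196 against 147 and 162 FPKM, and the carrier gene Unc119 was lower, at 73.6 and 91.3 against 165 and 122 FPKM (-0.79, SE 0.22).

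**Figure D4:**
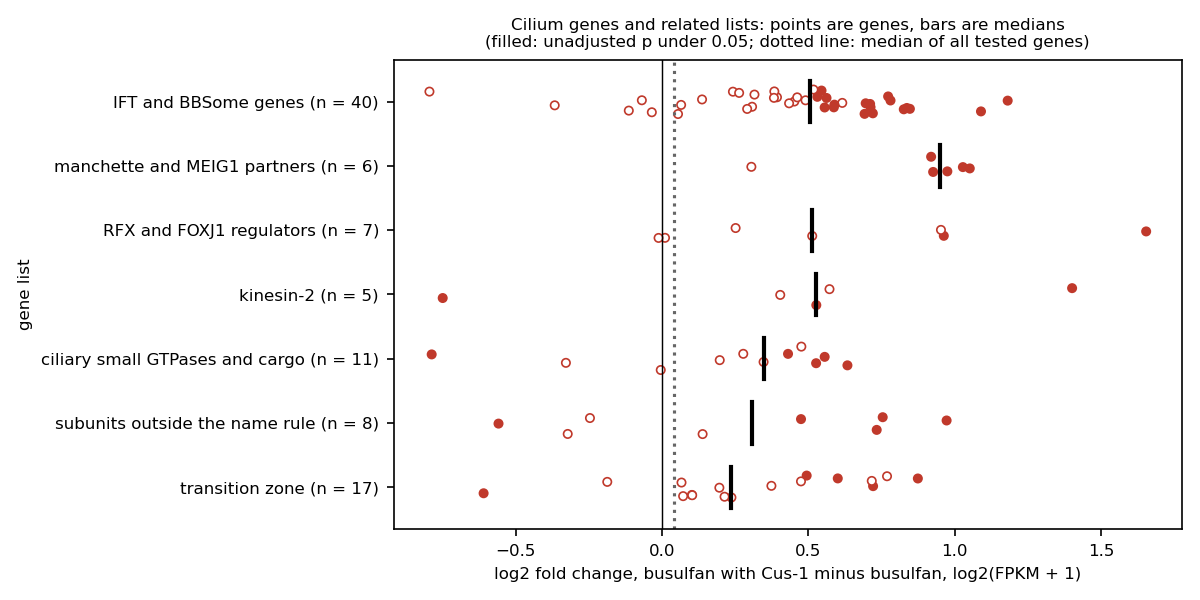
Log2 fold change (busulfan with Cus-1 minus busulfan) of each tested gene in the transport set and in 6 related lists, filled where the limma unadjusted p was under 0.05, with black bars at the list medians. The manchette list lies highest (median 0.95) and the transition zone list lowest (0.24), while each list apart from those of the manchette and the RFX factors holds at least 1 gene well below 0.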

How the data were processed

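The authors deposited 1 table of FPKM per gene and library, on mouse build mm10 per the notes on processing that the submitters gave. Which aligner, counter, annotation, strand setting and filters they used is not given in the sources used here. Each column carried the library name of a label. The 910 rows without a gene name (0.641% to 0.688% of summed FPKM) were left out, and for 115 symbols on more than 1 row the row with the highest mean was used. Testing required 1 FPKM in 2 of the 4 libraries and was done with limma 3.58.1 in R 4.3.3 (mean-variance trend, two-sided) on log2(FPKM + 1), which understates changes of low genes, with Benjamini-Hochberg adjustment over all 19837 genes. Alternatives were another pseudocount, filters, 3 other scalings, no trend and each library left out. Library numbers follow accession order and pair nothing. The code was tested on simulated data. Members, lists and tests were chosen with earlier results of these data known, so lists are described by counts beside all genes and get no test of their own. Named genes are all members, the 2 most abundant genes of each pathway list and those at an unadjusted p under 0.01, apart from some that are not reported here. Current symbols were matched to older GENCODE M21 and RefSeq symbols for 7 genes. Promoters were not used for Dync2li1, Ift122, Ift70b, Ift80, Ift81 and Ift88os.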

Additional observations from a re-analysis of the deposited data

How the results depend on the processing

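With pseudocount 0.1, equal summed FPKM, no low-value filter, a 5 FPKM filter or limma without the trend, every tested member kept its sign. Between 14 and 19 members were then higher at an unadjusted limma p under 0.05, against 9.39% to 20.7% of all genes. No member passed the adjusted threshold in any of the 11 alternatives. Centring each library on the Sertoli markers moved the median of all genes to 0.76 and the member median to 1.22. The count of higher members became 37, where 46.3% of all genes were higher, with 0 members below in both libraries. This centring adds the same amount to every log2 fold change, so negative values smaller than that amount turn by construction. The signs of Bbs12 (0.35), Bbs4 (0.68), Ift20 (0.60) and Ift70b (0.65) turned in this way. Quantile normalization moved the median of all genes to -0.0613 and put 13 members higher, where 14.3% of all genes were higher. It put 28 members above (34 in the main setting) and 4 below in both libraries, and Ift52 at -0.0464. Relative to all genes, the member median was 0.46 in the main setting and 0.50 after quantile normalization. It stayed at 0.46 after Sertoli centring, as it had to, because that centring shifts all log2 fold changes equally. All genes split into 3576 higher and 1975 lower in the main setting, 2831 and 2697 after quantile normalization and 9185 and 60 after Sertoli centring. With the 5 FPKM filter 1 member was below in both, and the median of all genes was -0.0056. Shares of all genes above or below busulfan were counted only in the main setting, so these member counts have no background in the other settings. With 1 library left out, 2 libraries were compared with 1, a separation that is easier to meet. Where Cus-1 was the reduced group, in both then means in its remaining library. Steady counts above or below in those fits are therefore no sign of robustness. Leaving out 1 library at a time gave 3 to 19 members higher, 0 to 1 lower, 34 to 35 above and 2 to 4 below in both, and a median from 0.35 to 0.69, with the lone library assumed to vary like the others. Bbs4 ran from -0.0722 to 0.0032 and Ift70b from -0.23 to 0.0948, both turning without busulfan 1. No paired analysis was possible because the labels give no replicate numbers that the groups share. Depth in fragments is unknown, which limits what can be said of genes near 1 FPKM.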
